A study of Mus musculus with 8 samples.

Results

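Respiratory complex I is described here through 47 nuclear genes, 35 for its subunits and 12 for its assembly factors. They were chosen by name, as the listed complex I genes with a row in the expression table, and all 47 were found among its 17847 genes. The RNA came from sorted muscle stem cells of C57Bl/6 mice, which express Pax7 and rebuild damaged fibres, with 4 wild-type and 4 Cox10-/- libraries. The Cox10-/- animals combined a floxed Cox10 allele with a Cre recombinase driven by Pax7 and switched on by tamoxifen, so that deletion is directed to Pax7-expressing cells. Both genotypes carry the same protocol in the labels, a single intraperitoneal injection of tamoxifen at 200 mg/kg with cells collected 2 days later, and the labels do not say whether the wild-type animals carried Cre. Living cells were sorted for CD34 and against CD31, CD45 and Sca1. No age is given, nor whether each library came from its own animal, so the p-values measure the spread between these libraries.

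Complex I is the largest enzyme of the respiratory chain. It takes electrons from NADH, passes them along iron-sulphur clusters to ubiquinone and uses the energy to pump protons across the inner mitochondrial membrane. Its N module binds NADH, its Q module reduces ubiquinone, and its proximal and distal P modules form the membrane arm, whose central pump subunits are encoded by mitochondrial DNA. Assembly factors build these modules and join them, and are not part of the finished enzyme. Cox10 encodes a farnesyltransferase of haem A synthesis, which serves complex IV and not complex I.

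The comparison asks how transcripts for complex I differed between Cox10-/- and wild-type cells. Of the 47 members, 8 fell in Cox10-/- cells, none rose and 39 did not pass the test (limma, Benjamini-Hochberg adjusted p under 0.05). The members that fell were 17% of the list, where 8.51% of the 17801 genes tested fell and 7.58% rose. At an unadjusted p under 0.05, 20 members (42.6%) were lower and 0 were higher, against 16.9% and 14.1% of all genes tested. The direction was shared by nearly the whole list: 45 of 47 members (95.7%) had a difference below 0, against 55% of all genes tested. The median difference was -0.38 on the log2 scale, against -0.05 over all genes. In 20 members (42.6%) every Cox10-/- library lay below every wild-type library, where 11.8% of all genes did so, and the opposite was seen in 0 members, against 9.3% of all genes. All 35 subunits lay below 0, with a median of -0.37 and a range of -0.98 to -0.03. After median centring, quantile normalization, cyclic loess or a correction for transcript length, 33 subunits did, with Ndufa3 and Ndufc2 at or above 0.

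**Figure D1:**
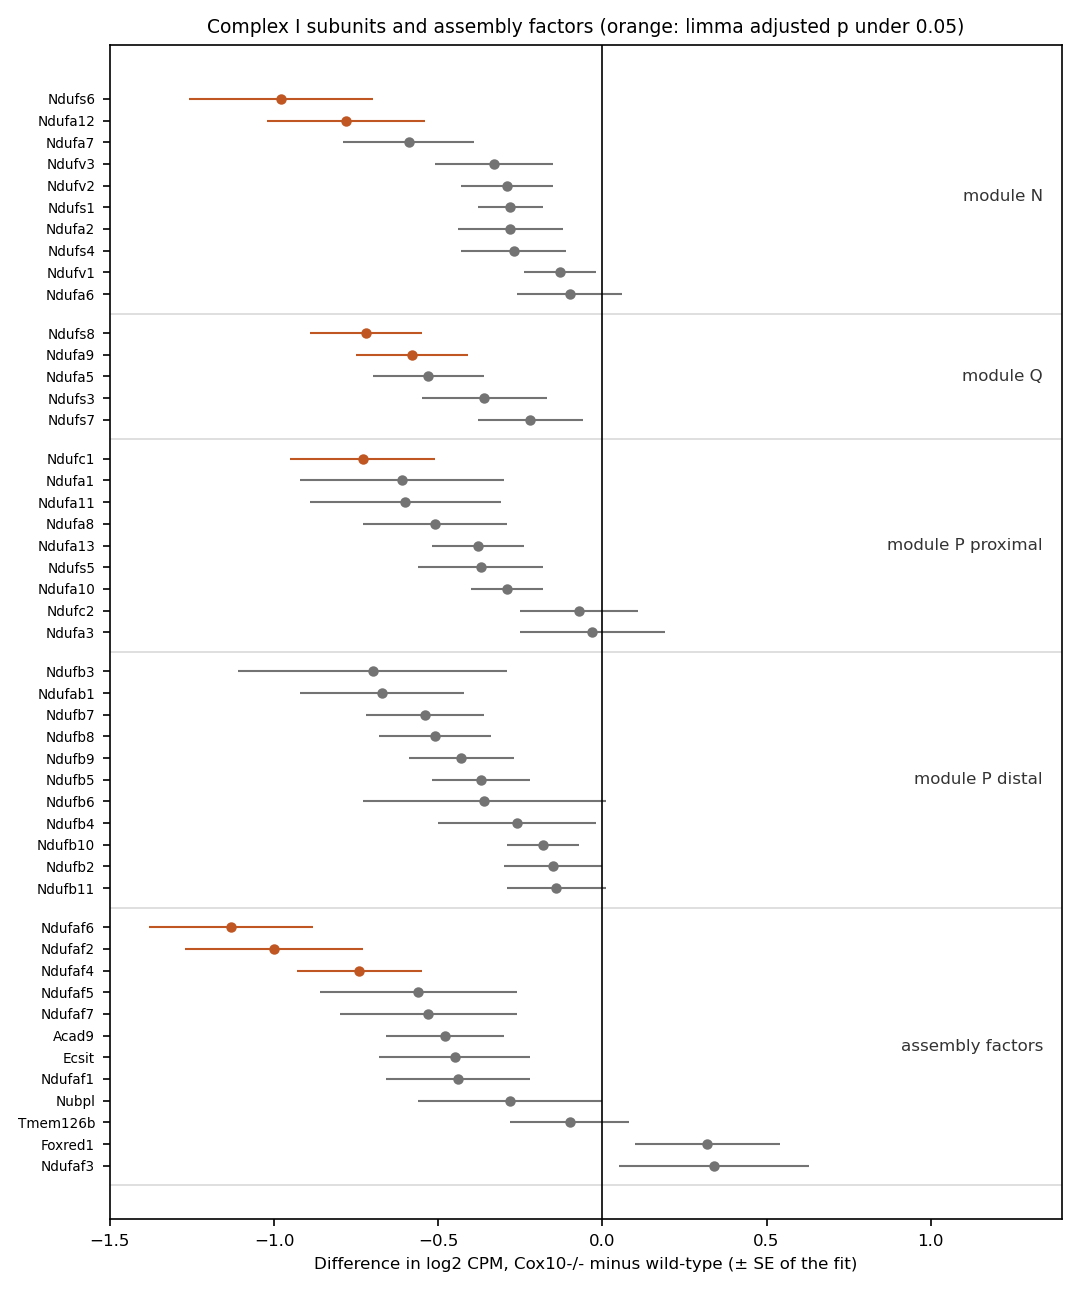
Difference in log2 CPM between Cox10-/- and wild-type for each of the 47 members (points, with the standard error of the fit), grouped by module, with members that passed the limma test in orange. All but Ndufaf3 and Foxred1 lie to the left of 0, and the 8 that passed lie between -1.13 and -0.58.

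The libraries themselves set limits on these values. Reads counted in genes ranged from 2148446 to 4647025 in wild-type and from 1694975 to 4351980 in Cox10-/- libraries, and a member was covered by 4 to 460 reads in a library. Cox10, the deleted gene, stood at 3.98, 3.42, 4.12 and 3.69 log2 CPM in wild-type replicates 1 to 4 and at 3.51, 3.69, 3.49 and 2.05 in Cox10-/- replicates 1 to 4. Cox10-/- thus differed from wild-type by -0.62 ± 0.34 (limma adjusted p = 0.246; SE over 4 libraries per genotype), and the floxed exon is not named in the labels. The value rested largely on Cox10-/- replicate 4: without it the Cox10 difference was -0.24, and the other 3 Cox10-/- libraries lay within the wild-type range. Pax7, the defining marker of the sorted cells, was present in every library and fell by 1.29 ± 0.11. The summed level of 12 muscle stem cell markers was 3070 to 3800 CPM in wild-type and 2160 to 2360 CPM in Cox10-/- libraries. Markers of cells that the sort should leave out moved as well. The sum of 12 endothelial markers was 279 to 319 CPM in wild-type and 369 to 442 CPM in Cox10-/- libraries. That of 9 fibro-adipogenic progenitor markers was 3740 to 4970 CPM and 3840 to 7790 CPM, with the highest values in Cox10-/- replicates 3 and 4. Haematopoietic markers, of which 3 of the listed genes were measured, summed to 23.5 to 31.3 CPM in wild-type and to 42.6, 44.6, 36.1 and 24.2 CPM in Cox10-/- replicates 1 to 4, with 0 calls. The sum of 10 myofibre markers was 96.1 to 241 CPM in wild-type and 135 to 363 CPM in Cox10-/- libraries. It was highest in Cox10-/- replicates 3 and 4. Of these markers 2 rose, Ckm (1.54) and Tnnt3 (1.31), and 0 fell. Their differences ranged from -1.53 to 1.54, with 2 below 0 and a median of 0.86. Among all genes tested, 7.58% rose and 8.51% fell. Of 9 mural cell markers 2 rose and 3 fell, with differences from -2.38 to 1.28 and a median of 0.35. Their sums were 1380 to 1590 CPM in wild-type and 1160 to 1480 CPM in Cox10-/- libraries. The 6 Schwann cell markers summed to 169 to 406 CPM and 182 to 422 CPM, with 0 calls. The part of these cell types in the complex I differences was not tested, and in bulk RNA fewer cells of a type and less RNA per cell cannot be told apart.

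Promoters of the members were searched for 5 motifs of factors known to act on respiratory genes. The search is a description, and a link between motifs and the differences was not tested. RefSeq promoters of GRCm38.p6, 250 bases before to 50 bases after the start, were found for 42 of the 47 members. Both strands were searched for the NRF1 motif (GCGC and TGCGC with any 1 base between), the ETS motif CCGGAAG, the YY1 motif AAGATGGCG, the CREB motif TGACGTCA and the ESRRA motif AAGGTCA. The NRF1 motif was in 9 members (21.4%), against 5.2% of all 27025 genes with a promoter of that length and 10.4% of the 11066 measured genes among them. A gene counted once if any of its promoters held the motif. The YY1 motif was in 6 members (14.3%), against 1.6% and 3.2%. The ETS motif was in 6 members as well, against 9.9% and 18.2%. The CREB motif was in 4 members (9.5%), against 2.0% and 3.4%, and the ESRRA motif in 3 (7.1%), against 5.4% and 3.9%. Any of the motifs was in 23 members (54.8%), against 21.2% of all and 33.2% of measured genes. A match is a run of letters and does not show that a factor binds there.

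The 6 members with the YY1 motif are shown first, because all hold it after the start, at 18 to 36 of the 50 bases searched there. The motif contains ATG, and whether the matches lie over a start codon was not checked. Each stretch of 30 bases is written 5′ to 3′ on the gene's strand, with the motif in capitals. The stretches are chr13:73328433-73328462 (minus strand) for Ndufs6, chr6:126849097-126849126 (minus) for Ndufa9, chr3:51408915-51408944 (minus) for Ndufc1, chr13:114388045-114388074 (minus) for Ndufs4, chr10:80249462-80249491 (plus) for Ndufs7 and chr7:90475960-90475989 (minus) for Tmem126b. Ndufs6, Ndufa9 and Ndufc1 fell, and Ndufs4, Ndufs7 and Tmem126b did not pass the test.
Ndufs6: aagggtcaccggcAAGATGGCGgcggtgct
Ndufa9: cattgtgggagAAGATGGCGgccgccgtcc
Ndufc1: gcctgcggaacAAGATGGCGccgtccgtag
Ndufs4: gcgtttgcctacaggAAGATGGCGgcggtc
Ndufs7: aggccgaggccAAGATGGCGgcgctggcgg
Tmem126b: cgtgaggcgctAAGATGGCGgcgtcccagc

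Of the other members that fell, Ndufs8 held the ETS motif, in reverse complement, 16 bases after its start at chr19:3912742-3912771 (minus strand). Ndufaf4 held the NRF1 motif 113 bases before its start, and Ndufs6 held it 16 bases before its start beside the YY1 motif shown above. No match to the 5 motifs was found in the promoters of Ndufa12 and Ndufaf2. Ndufaf6 was among the 5 members with no matched promoter and was not searched. The ETS stretch of Ndufs8 and the 250 bases before the start of Ndufs6 (chr13:73328483-73328732, minus strand) and of Ndufaf4 (chr4:24897833-24898082, plus strand) are printed with the motif in capitals.
Ndufs8: cttaggctccgcCTTCCGGttgaaccgcat
Ndufs6: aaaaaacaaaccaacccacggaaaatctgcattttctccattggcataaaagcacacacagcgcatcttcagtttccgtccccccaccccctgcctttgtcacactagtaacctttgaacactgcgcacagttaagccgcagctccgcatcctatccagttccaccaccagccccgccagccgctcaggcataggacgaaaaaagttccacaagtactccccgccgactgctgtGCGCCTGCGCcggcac
Ndufaf4: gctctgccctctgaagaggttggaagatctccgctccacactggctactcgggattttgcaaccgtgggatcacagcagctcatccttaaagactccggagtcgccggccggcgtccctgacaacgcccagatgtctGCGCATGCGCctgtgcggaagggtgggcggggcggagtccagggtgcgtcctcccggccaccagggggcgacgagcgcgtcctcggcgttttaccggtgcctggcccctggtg

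The N module, which takes electrons from NADH, had 10 members measured, and 2 of them fell (20%, against 8.51% of all genes tested). All 10 lay below 0, where 55% of all genes did, with a median of -0.29. The genotypes did not overlap in 5 (50%), with Cox10-/- lower, against 11.8% of all genes. Ndufs6 encodes a zinc-binding subunit that is added late in assembly. It stood at 3.22, 3.14, 3.71 and 3.42 log2 CPM in wild-type replicates 1 to 4 and at 2.75, 2.74, 1.82 and 2.24 in Cox10-/- replicates 1 to 4. The groups did not overlap, and Cox10-/- replicates 3 and 4 were the lowest of the 8. The difference was -0.98 ± 0.28 (SE; limma adjusted p = 0.0332), which leaves 50.5% of the wild-type level. Ndufa12 encodes an accessory subunit that takes the place of the assembly factor Ndufaf2 as the enzyme matures. Its wild-type libraries lay at 3.38, 3.29, 3.24 and 3.58 log2 CPM and its Cox10-/- libraries at 2.54, 3.01, 2.27 and 2.56. Again no library of one genotype reached the other, and Ndufa12 fell by 0.78 ± 0.24 (adjusted p = 0.0487), to 58.3% of wild-type. Depth was low for both genes, with 8 reads of Ndufs6 and 10 of Ndufa12 in Cox10-/- replicate 4.

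Both genes have a near-identical copy in the mouse genome, at 95% identity or more over at least 50% of the transcript, so their reads could be shared. The copy of Ndufa12, Gm15920, has its own row and differed by -0.29 ± 0.24 (adjusted p = 0.446). The copy of Ndufs6, Ndufs6b, has no row of its own. Other members, Ndufs3, Ndufs5 and Ndufb11, also have such a copy.

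The next members of the N module did not pass. Ndufa7, an accessory subunit, had no overlap between genotypes and a difference of -0.59 ± 0.20 (adjusted p = 0.0637). Ndufs1 encodes the largest core subunit and carries iron-sulphur clusters. Its wild-type libraries lay between 6.5 and 6.63 log2 CPM and its Cox10-/- libraries at 6.34, 6.36, 6.31 and 6.06, without overlap. The difference was small, -0.28 ± 0.10 (adjusted p = 0.0768), and Ndufs1 was among the deepest members with 113 to 460 reads per library. Ndufv1, which holds the flavin that receives electrons from NADH, was named after its values were seen. It differed by -0.13 ± 0.11, with a 95% interval of -0.37 to 0.10.

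The Q module passes electrons on to ubiquinone, and 2 of its 5 members fell (40%, against 8.51% of all genes tested). All 5 lay below 0, where 55% of all genes did, with a median of -0.53. The genotypes did not overlap in 3 (60%), with Cox10-/- lower, against 11.8% of all genes. Ndufs8 is a core subunit whose iron-sulphur clusters lie on the path to ubiquinone. Wild-type replicates 1 to 4 held it at 4.68, 4.6, 4.81 and 4.89 log2 CPM, and Cox10-/- replicates 1 to 4 at 4.06, 4.30, 3.92 and 3.82. The lowest wild-type library stood above the highest Cox10-/- library. Ndufs8 fell by 0.72 ± 0.17 (SE; limma adjusted p = 0.0116), to 60.7% of wild-type, on 24 to 130 reads per library. Ndufa9, an accessory subunit at the joint of the matrix and membrane arms, stood at 4.95, 4.48, 4.85 and 4.62 log2 CPM in wild-type and at 3.91, 4.24, 4.32 and 4.10 in Cox10-/- replicates. The groups did not overlap, but wild-type replicate 2 and Cox10-/- replicate 3 came close. Ndufa9 fell by 0.58 ± 0.17 (adjusted p = 0.0353), to 66.8% of wild-type.

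Ndufa5, an accessory subunit of the same module, had no overlap and a difference of -0.53 ± 0.17 (adjusted p = 0.0581). It stood at 4.03 to 4.31 log2 CPM in wild-type and at 3.54 to 3.79 in Cox10-/- libraries. Ndufs3, a core subunit that enters at the start of assembly, differed by -0.36 ± 0.19 (adjusted p = 0.229) with overlap between genotypes. Core and accessory subunits differed alike in direction. Of the 6 core subunits encoded in the nucleus and listed here, 1 fell (16.7%) and the median was -0.29. Of the 29 accessory subunits, 4 fell (13.8%) and the median was -0.38. Over all genes tested, 8.51% fell and the median was -0.05. The difference between core and accessory subunits was not tested.

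**Figure D2:**
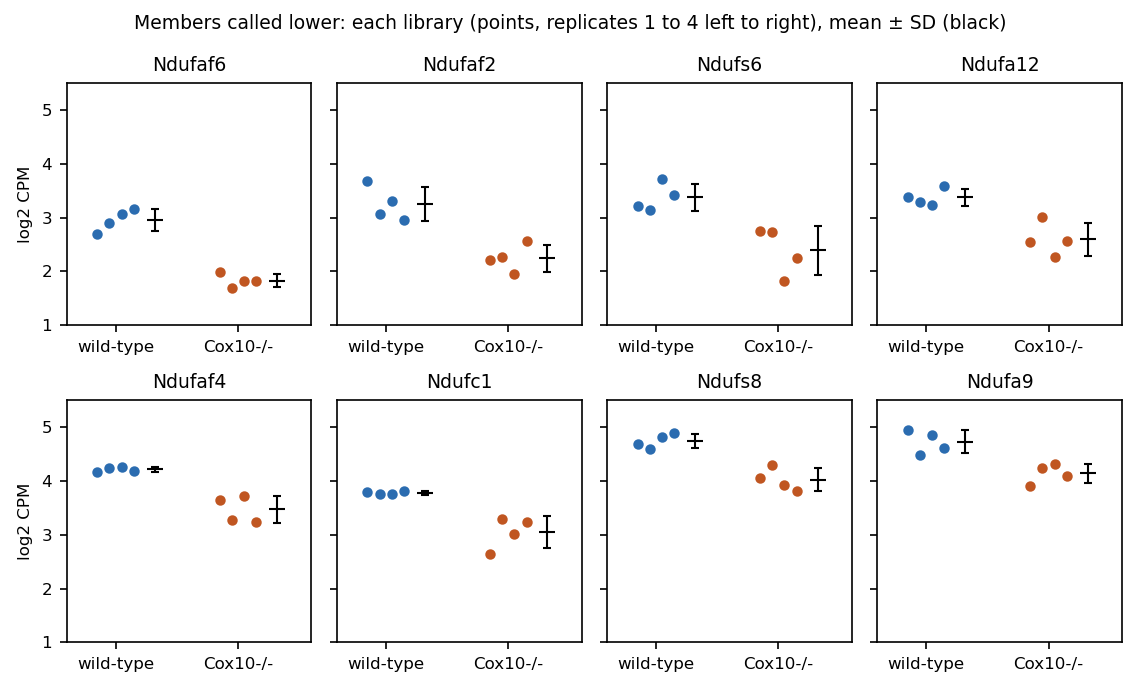
Log2 CPM of the 8 members that fell, with each library as a point (replicates 1 to 4 from left to right, wild-type in blue, Cox10-/- in orange) and the mean ± SD of 4 libraries in black. In each panel the 4 Cox10-/- libraries lie below the 4 wild-type libraries.

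The proximal P module forms the part of the membrane arm next to the ubiquinone site. Of its 9 members 1 fell (11.1%, against 8.51% of all genes tested). All 9 lay below 0, where 55% of all genes did, with a median of -0.38. The genotypes did not overlap in 3 (33.3%), with Cox10-/- lower, against 11.8% of all genes. Ndufc1 encodes a small membrane-spanning subunit. It was tightly held in wild-type libraries, at 3.79, 3.75, 3.76 and 3.82 log2 CPM, and stood at 2.65, 3.30, 3.01 and 3.24 in Cox10-/- libraries. No Cox10-/- library reached the wild-type range, and the spread was wider in Cox10-/- (SD 0.29) than in wild-type (SD 0.03). Ndufc1 fell by 0.73 ± 0.22 (SE; limma adjusted p = 0.0384), to 60.3% of wild-type.

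The next proximal members did not pass. Ndufa13, also known as GRIM-19, differed by -0.38 ± 0.14 (adjusted p = 0.0843), without overlap between genotypes. The gene Tssk6 covers 30.0% of its exons on the opposite strand, and the counting's use of strand is not given in the sources used here. Ndufa10, a subunit related to nucleoside kinases, stood at 6.08, 5.80, 6.20 and 6.16 log2 CPM in wild-type and at 5.75, 5.79, 5.80 and 5.73 in Cox10-/- libraries. Wild-type replicate 2 met the Cox10-/- libraries, and the difference was -0.29 ± 0.11 (adjusted p = 0.096). Ndufa8, a disulphide-bonded subunit facing the intermembrane space, differed by -0.51 ± 0.22 (adjusted p = 0.134). The members nearest to 0, chosen after their values were seen, were Ndufa3 at -0.03 and Ndufc2 at -0.07. Their 95% intervals, -0.52 to 0.45 and -0.46 to 0.32, include differences as large as the median of the list.

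The distal P module, at the far end of the membrane arm, had 11 members and none fell, where 8.51% of all genes tested did. At an unadjusted limma p under 0.05, 5 of the 11 were lower, against 16.9% of all genes. Differences between modules were not tested. All 11 nonetheless lay below 0, where 55% of all genes did, with a median of -0.37. The genotypes did not overlap in 5 (45.5%), with Cox10-/- lower, against 11.8% of all genes. Ndufb7, a subunit facing the intermembrane space, stood at 4.42, 4.03, 4.35 and 4.48 log2 CPM in wild-type and at 3.96, 3.66, 3.86 and 3.63 in Cox10-/- libraries. The groups were apart, and the difference of -0.54 ± 0.18 had a limma adjusted p of 0.0604. Ndufb8, whose protein is widely used as a marker of assembled complex I, differed by -0.51 ± 0.17 (adjusted p = 0.063). Its groups were separated by a small margin, from 4.20 in Cox10-/- replicate 2 to 4.22 in wild-type replicate 2. Ndufab1 is the mitochondrial acyl carrier protein, which also serves fatty acid synthesis. Its Cox10-/- libraries stood at 4.45, 4.55, 4.45 and 3.33, below the wild-type range of 4.70 to 5.0, and the difference was -0.67 ± 0.25 (adjusted p = 0.0867). Ndufb9, which binds the acyl carrier protein, differed by -0.43 ± 0.16 (adjusted p = 0.0884) and overlapped through Cox10-/- replicate 4. Another gene, Gm49356, covers 28.6% of the exons of Ndufb9 on the same strand.

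Assembly factors were more mixed than subunits. Of 12, 3 fell (25%, against 8.51% of all genes tested) and 9 did not pass. In all, 10 (83.3%) lay below 0, against 55% of all genes. The median was -0.47 and the range -1.13 to 0.34. Ndufaf6 acts early in assembly and is needed for the junction of the Q module with the membrane arm. It stood at 2.70, 2.90, 3.07 and 3.16 log2 CPM in wild-type replicates 1 to 4 and at 1.98, 1.69, 1.82 and 1.82 in Cox10-/- replicates 1 to 4. The groups were well apart, and Ndufaf6 fell by 1.13 ± 0.25 (SE; limma adjusted p = 0.0103), to 45.7% of wild-type. This was the lowest difference of all members, on 6 to 39 reads per library. Ndufaf2, which holds the place of Ndufa12 during assembly, stood at 3.67, 3.07, 3.31 and 2.95 in wild-type and at 2.21, 2.27, 1.95 and 2.56 in Cox10-/- libraries. It fell by 1.00 ± 0.27 (adjusted p = 0.0233), to 49.9%, and its groups did not overlap. Ndufaf2 and Ndufa12, which are related in sequence and occupy the same site in turn, thus both fell. Ndufaf4 works on the Q module together with Ndufaf3. Its wild-type libraries were close together at 4.17, 4.25, 4.26 and 4.18 log2 CPM, and its Cox10-/- libraries stood at 3.65, 3.27, 3.72 and 3.24. Without overlap between genotypes, Ndufaf4 fell by 0.74 ± 0.19 (adjusted p = 0.0196), to 59.7% of wild-type.

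Ndufaf3, the partner of Ndufaf4, did not follow it. It stood at 3.03, 2.48, 3.28 and 3.80 in wild-type and at 3.38, 3.83, 3.41 and 3.33 in Cox10-/- libraries, with overlap between genotypes. The difference was 0.34 ± 0.29 (adjusted p = 0.457; 95% interval -0.28 to 0.96). Foxred1, an oxidoreductase-like assembly factor, was the other member above 0, at 0.32 ± 0.22 (adjusted p = 0.345). Its libraries lay at 4.10, 3.98, 4.76 and 4.14 in wild-type and at 4.86, 4.62, 4.69 and 4.10 in Cox10-/-. Acad9, an acyl-CoA dehydrogenase that joins Ecsit, Ndufaf1 and Tmem126b in the complex that builds the membrane arm, differed by -0.48 ± 0.18 (adjusted p = 0.0847). The partners of Acad9, named after their values were seen, stood at -0.45 (Ecsit), -0.44 (Ndufaf1) and -0.10 (Tmem126b), and none passed.

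Summed over genes, the members made up 1140 ± 72.3 CPM in wild-type (SD, n = 4) and 906 ± 30.7 CPM in Cox10-/- libraries, or 79.7% of wild-type. Every Cox10-/- library (874 to 937 CPM) lay below every wild-type library (1030 to 1180 CPM). The Q module had the lowest share of its wild-type sum, 71.9%, from 117 ± 9.18 to 84.3 ± 6.92 CPM. The N module kept 82.5%, the proximal P module 78.9% and the distal P module 80.2%, each without overlap between genotypes. The assembly factors kept 79.8%, and here the ranges overlapped, 151 to 199 CPM in wild-type and 115 to 159 CPM in Cox10-/- libraries. No test was made of these sums, which follow the most abundant members.

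**Figure D3:**
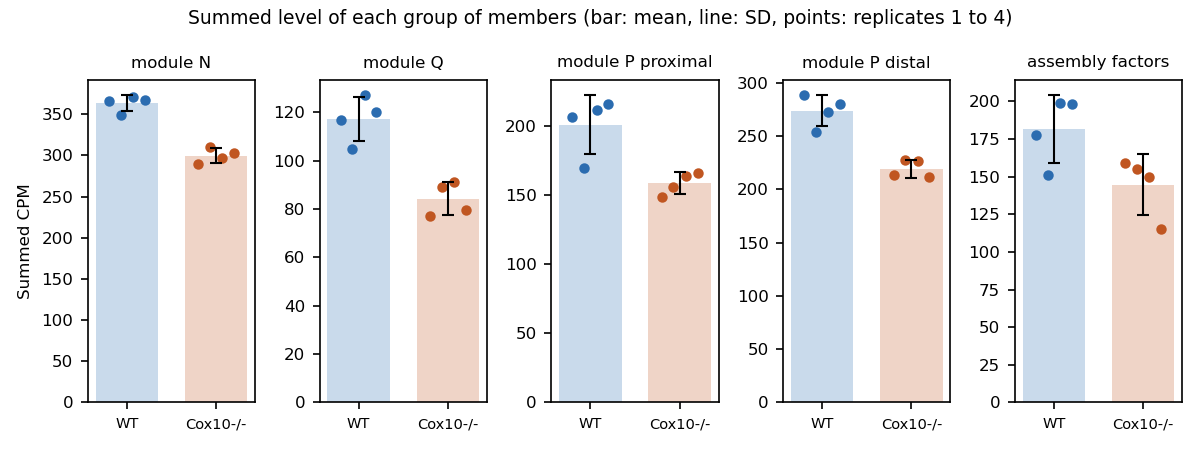
Summed CPM of the members of each module and of the assembly factors, with each library as a point, the mean of 4 libraries as a bar and the SD as a line, on axes that start at 0. The genotypes are apart in the 4 modules and overlap in the assembly factors.

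Per kilobase of the annotated transcript, subunits were more abundant than assembly factors. In wild-type libraries subunits ranged from 7.95 CPM per kb (Ndufb6) to 66.1 CPM per kb (Ndufa6), and assembly factors from 1.73 (Nubpl) to 14.0 CPM per kb (Ndufaf2). The lengths are those of the annotated principal transcript, which may differ from the one used in these cells.

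The genotypes were also compared within replicates 1 and 2 and within replicates 3 and 4, a split taken from an earlier look at these data. The labels name no batch. In the first pair the 47 members had a median difference of -0.32 and all genes one of 0.05. In the second pair the medians were -0.47 and -0.15. Of the members, 38 lay below 0 in both pairs. Subunits had nearly the same median in each, -0.37 and -0.41. Assembly factors had -0.17 and -0.69, with 8 of 12 and 12 of 12 below 0. Ndufs6 went from -0.44 to -1.53, while Ndufaf4 (-0.75 and -0.74) and Ndufc1 (-0.80 and -0.66) were alike in both pairs. Ndufaf3 (0.85 and -0.17) and Foxred1 (0.70 and -0.05) lay above 0 in the first pair alone. A test of the interaction between genotype and pair called 0 members, where 0.0674% of all genes passed. At an unadjusted p under 0.05, which 18% of all genes passed, it marked 4 members, Ndufs6 (0.0387), Ndufa6 (0.0266), Ndufaf3 (0.0495) and Tmem126b (0.0155), by limma.

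**Figure D4:**
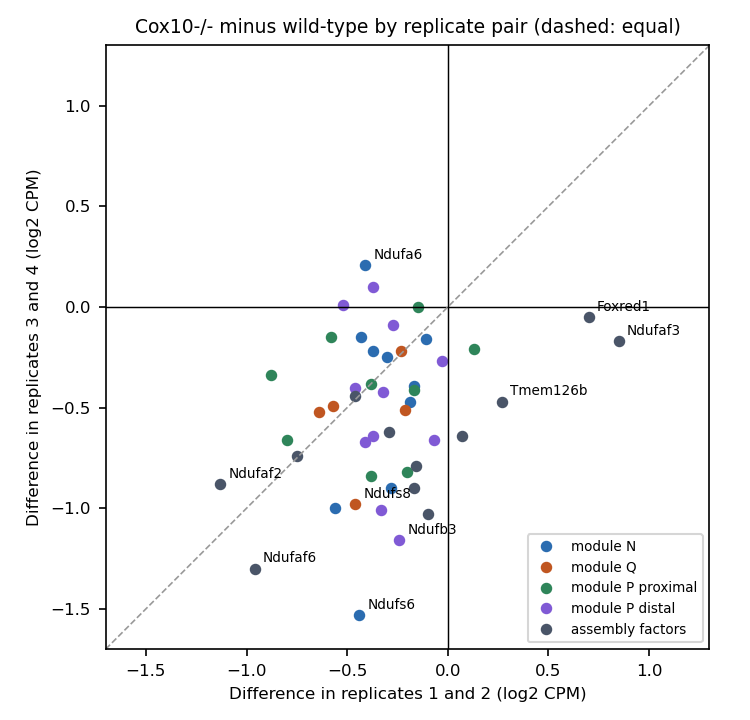
Difference in log2 CPM between Cox10-/- and wild-type in replicates 1 and 2 (horizontal) and in replicates 3 and 4 (vertical) for the 47 members, coloured by module. Of the points, 38 lie below 0 on both axes, and Ndufs6 lies far below the dashed line of equal differences.

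Within a genotype, members did not vary closely together. After the genotype mean was taken off, Pearson's r over the 8 libraries between a subunit and the mean of the other subunits had a median of 0.26, and 27 of 35 were above 0. The range ran from -0.81 for Ndufa6 to 0.91 for Ndufa10. The points share library, depth and cell make-up, so these values are a description.

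The number of calls depended on single libraries. Ndufs8 and Ndufaf6 kept their calls in each of the 8 fits that left out 1 library, with adjusted p of up to 0.0393 and 0.0379. The calls of Ndufaf2 were lost without wild-type replicate 1 (0.0834), wild-type replicate 3 (0.0598) or Cox10-/- replicate 3 (0.0721). Those of Ndufaf4 were lost without wild-type replicate 1 (0.0504), wild-type replicate 3 (0.0530) or Cox10-/- replicate 2 (0.0544). Ndufs6 lost its call without any 1 of wild-type replicates 1 (0.0645), 3 (0.0979) and 4 (0.0763) or Cox10-/- replicates 3 (0.0964) and 4 (0.0578). Ndufc1 kept its call only without Cox10-/- replicate 2 (0.0471) or 4 (0.0352), Ndufa12 only without Cox10-/- replicate 2 (0.0406) and Ndufa9 only without wild-type replicate 2 (0.0242). The count of members that fell was 2 without wild-type replicate 1, 2 without wild-type replicate 3, 4 without wild-type replicate 4, 3 without Cox10-/- replicate 3 and 13 without wild-type replicate 2. Without wild-type replicate 1 or 3 these were 4.26% of the members, against 5.26% and 5.44% of all genes, so that the share of calls among members was no longer above that of all genes. The share was above it without wild-type replicate 4 (8.51% against 5.65%) or wild-type replicate 2 (27.7% against 9.59%). Without Cox10-/- replicate 3 it was 6.38% against 5.43%. Without Cox10-/- replicates 3 and 4, whose fibro-adipogenic markers were highest, Ndufaf6 alone passed (adjusted p = 0.0447), and the median of the members was -0.37. This 1 call was 2.13% of the members, against 4.34% of all genes. With the means of replicates 1 and 2 and of replicates 3 and 4 as 2 samples per genotype, 0 members passed, where 2.32% of all genes fell. For each of the 8 members that fell, the exact two-sided permutation p over the 70 assignments was 0.0286, the smallest that 4 against 4 libraries can give. Any gene without overlap between genotypes has this p, so it adds nothing to the lack of overlap given above. Among all genes tested, 11.8% had no overlap with Cox10-/- lower and 9.3% with Cox10-/- higher.

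**Figure D5:**
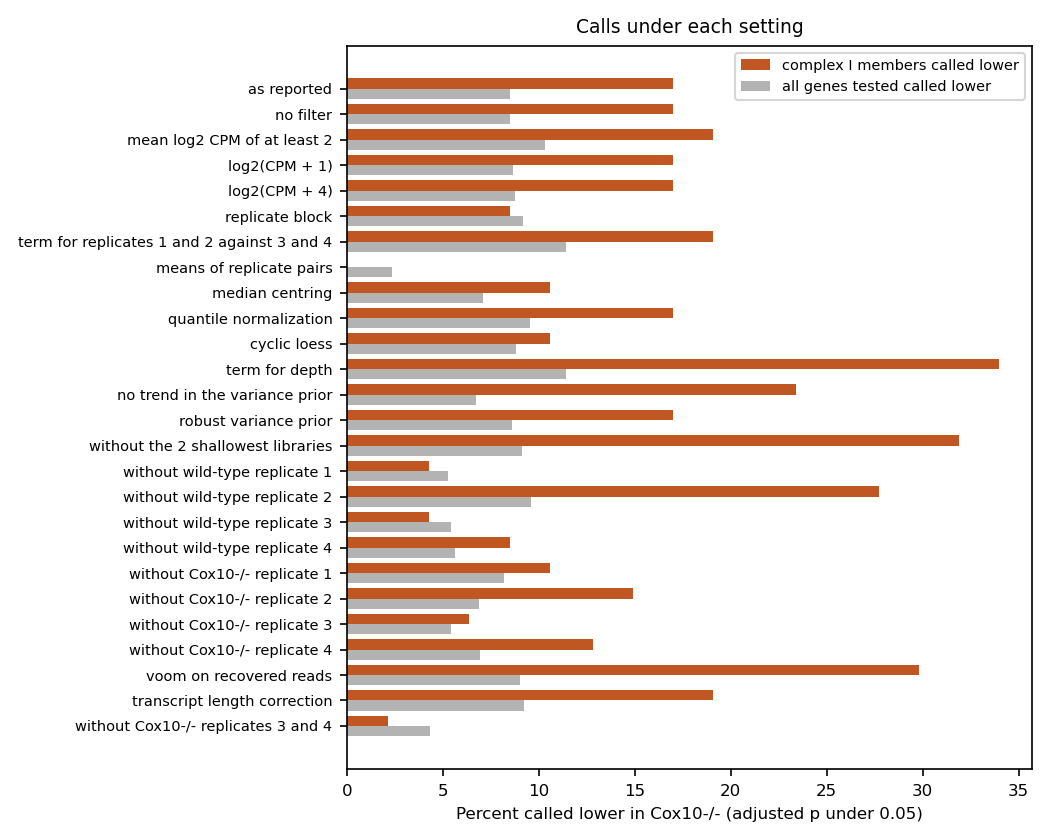
Percent of the 47 members (orange) and of all genes tested (grey) called lower in Cox10-/- as reported and under each of the 25 other settings, on an axis that starts at 0. The members' bar varies from 0 to 34%, and it is below the grey bar in some settings, such as without wild-type replicate 1 (4.26% against 5.26%) and with pair means (0% against 2.32%).

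A further 10 complex I genes in the nucleus, outside the 47, gave 1 fall (10%, against 8.51% of all genes tested) and 0 rises, with a median of -0.12. Chchd4 fell by 0.79 ± 0.21 (SE; limma adjusted p = 0.0249). It encodes the oxidoreductase that folds disulphide-bonded proteins of the intermembrane space, Ndufa8 and Ndufb7 among them, and its call was lost without wild-type replicate 1 (0.0902), wild-type replicate 4 (0.0504) or Cox10-/- replicate 3 (0.0770). The 7 complex I subunits encoded by mitochondrial DNA gave no call, with a median of -0.02. Their medians had opposite signs in the pairs of replicates, -0.49 in the first and 0.51 in the second, and mt-Nd3 was listed at 0 in wild-type replicate 3 and Cox10-/- replicate 1.

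Genes that work around complex I gave few calls, near the share over all genes tested, of which 8.51% fell and 7.58% rose. Of 13 genes of ubiquinone synthesis 1 rose, Adck3 (also called Coq8a), by 0.60 ± 0.10 (SE; limma adjusted p = 0.00188). Of 9 genes of other enzymes that give electrons to ubiquinone 1 rose, the proline dehydrogenase Prodh, by 1.04 ± 0.12 (adjusted p = 1.29e-04), and 0 fell. Both kept their calls in every fit without 1 library. Of 9 genes of the shuttles that carry NADH electrons into mitochondria 1 fell, the carrier Slc25a11, by 0.47 ± 0.14 (adjusted p = 0.0439), a call lost in 7 of the 8 fits without 1 library. In direction, 11 of the 13 ubiquinone synthesis genes (84.6%) lay below 0, with a median of -0.29. So did 4 of the 9 other electron donors (median 0.02) and 6 of the 9 shuttle genes (median -0.07). Over all genes tested, 55% lay below 0 and the median was -0.05.

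The other respiratory complexes had medians below 0 as well, where the median over all genes tested was -0.05, and 8.51% fell and 7.58% rose. ATP synthase had 6 falls among 16 genes and a median of -0.33, with the subunit genes Atp5g2 (-0.58 ± 0.15), Atp5o (-0.64 ± 0.16), Atp5b (-0.29 ± 0.07) and Atp5h (-0.60 ± 0.16) at the smallest p. Complex III had 2 falls among 15 genes and a median of -0.18, namely Lyrm7, an assembly factor (-1.42 ± 0.36), and Cyc1, cytochrome c1 (-0.56 ± 0.16). Complex II gave 0 calls among 8 genes with a median of -0.28. Complex IV gave 1 rise among 14 genes, Cox4i2 (1.20 ± 0.33), with a median of -0.24. Leaving out 1 library ended the call of Lyrm7 in 2 of 8 fits, of Cyc1 and Cox4i2 in 5 each, and of the 4 ATP synthase genes in 1 to 3. The difference between complex I and these lists was not tested.

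Of 10 nuclear regulators of respiratory genes, 1 rose and 1 fell, where 7.58% of all genes tested rose and 8.51% fell. Both are coactivators of the same family. Ppargc1a (PGC-1alpha) rose by 0.83 ± 0.15 (SE; limma adjusted p = 0.00368), from 5.24 ± 0.29 to 6.06 ± 0.18 log2 CPM (SD, n = 4). Ppargc1b (PGC-1beta) fell by 0.97 ± 0.26 (adjusted p = 0.0266), with -0.41 in the first pair of replicates and -1.53 in the second. The call of Ppargc1a was kept in every fit without 1 library, and that of Ppargc1b was lost in 4 of the 8 (0.0735 when Cox10-/- replicate 3 was left out). Genes for factors of 4 of the 5 motifs searched above were in this list, and none passed: Nrf1 differed by -0.27, Gabpa of the ETS family by -0.14, Yy1 by 0.12 and Esrra by -0.03. Gabpb1, the partner of Gabpa, differed by -0.54 ± 0.21 (adjusted p = 0.105). No CREB gene was in the list.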

How the data were processed

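RNA was measured in 8 bulk libraries, 4 per genotype, made with a stranded low-input total RNA kit, per the labels' protocols. Trim Galore, HISAT2, featureCounts, DESeq2 and the build mm9 are named in the submitters' processing notes. Not given in the sources used here are their roles and versions and whether strand was used in counting. The authors deposited log2 CPM per gene symbol, rounded to 2 decimals, with a CPM of 1 or less at 0, as tested on the file. A further 1054 rows hold no gene, and 23 symbols had been turned into dates. Low values were whole multiples of 1 read (100% within 0.1 of a whole number, up to 20 reads), which gave the reads per library.

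Values were tested as deposited with limma 3.58.1 (R 4.3.3), with a mean-variance trend and genotype as the only term, and p-values were adjusted over 17801 genes above 0 in at least 4 of 8 libraries (46 removed). All 47 members passed that filter. The code was tested on simulated data. The members and lists were chosen with earlier results of these data known. Named by rule were Cox10, Pax7, members that passed, the 4 members of each module and of the assembly factors with the smallest p, members above 0, and called genes of the other lists. Some genes that the rule selects are not reported here. Replicate numbers did not pair the libraries by the criterion used, so no block was fitted in the reported values. Alternatives were other normalizations, filters, variance priors and terms, the replicate block, pair means, voom on recovered reads and leaving out libraries. Promoters are from RefSeq (GRCm38.p6) and transcript lengths, copies and overlaps from GENCODE M21. Coordinates of the table's own build were not used.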

Additional observations from a re-analysis of the deposited data

Results flagged for a closer look

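Of 96 sets of 4 libraries (47 members and Cox10 in each genotype), 8 held a library far from the other 3, with a gap to its nearest neighbour, as a share of the range, above Dixon's critical value. Chance gives about 1 in 20 such sets. Cox10-/- replicate 4, the shallowest library, was the distant one in 5 of the 8. It held Cox10 at 2.05 log2 CPM, Ndufs1 at 6.06, Ndufa8 at 3.33, Ndufab1 at 3.33 and Ndufaf5 at 1.82, each below the other 3 Cox10-/- libraries. Cox10-/- replicate 2 was above the others for Ndufb8 (4.20) and Ndufaf3 (3.83). Wild-type replicate 2 was below the others for Ndufa1 (2.80). None of these members passed the test between genotypes.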

How the results depend on the processing

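Over the 25 settings besides the reported one, the median difference of the members stayed between -0.46 and -0.30 and 0 members were called higher. The number of members called lower moved from 8 to 4 with the replicate block, 0 with pair means, 5 with median centring, 5 with cyclic loess, 16 with a term for depth, 15 without the 2 shallowest libraries, 14 with voom on recovered reads and 1 without Cox10-/- replicates 3 and 4. Leaving out 1 library at a time gave 2 to 13. The share of members called lower was below that of all genes with the block (8.51% against 9.15%) and pair means (0% against 2.32%). It was also below without Cox10-/- replicates 3 and 4 (2.13% against 4.34%). It was above with median centring (10.6% against 7.07%), cyclic loess (10.6% against 8.81%) and the depth term (34% against 11.4%). The same held without the 2 shallowest libraries (31.9% against 9.1%) and with voom (29.8% against 9%). Subunits called lower moved from 5 to 1 with the block, 0 with pair means, 2 with median centring, 2 with cyclic loess, 12 with the depth term, 8 with no trend in the variance prior, 10 without the 2 shallowest libraries, 11 with voom and 0 without Cox10-/- replicates 3 and 4, and ranged from 1 to 8 without 1 library. Assembly factors called lower moved from 3 to 0 with pair means, 5 without the 2 shallowest libraries and 1 without Cox10-/- replicates 3 and 4, and ranged from 1 to 5 without 1 library. Members without overlap between genotypes numbered 20 as reported, 37 with pair means and 35 without the 2 shallowest libraries, where fewer values are compared. The share of all genes was 11.8% as reported. It was not computed for the other settings, so the 37 and 35 have no background and cannot be set against the 20. The causes of the other shifts were not tested.

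Same-numbered libraries correlated, after removal of genotype means, at 0.05, 0.14, 0.11 and 0.13, and not every library correlated best with its own number, so the numbers were not taken as pairs. With the block, 1628 genes were called lower and 1573 higher, against 1514 and 1349. Median centring gave 1259 lower and 1764 higher. The voom fit, the length correction and the fits without Cox10-/- replicates 3 and 4 or within replicate pairs were added after seeing the data. Planned fits with edgeR and DESeq2 were not run, because they need deposited counts. Depth is lowest in Cox10-/- replicate 4, with 4 reads of Ndufb3, 5 of Nubpl and 6 of Ndufaf5 and Ndufaf6.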
